A study of Schizosaccharomyces pombe with 6 samples.

Results

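The hexose transporter genes *ght1* to *ght8* of *Schizosaccharomyces pombe* are 8 of the 5113 protein-coding genes annotated on its 3 chromosomes. They were examined in lists of CFP-Cnp1 ChIP-seq peaks, over each gene body with 2 kb on each side, called its window below. The family was selected on measured values, because *ght7* lies in the longest peak-free stretch of the *SUMO-KallR* list. Covered shares, summits and scores of these genes are therefore given as a description, with no test. The study asked whether loss of SUMO chains alters where the centromeric histone Cnp1 (CENP-A in human) is placed. An anti-GFP antibody was used for ChIP in an untagged strain, in WT *CFP-cnp1* and in *SUMO-KallR CFP-cnp1*, in which the lysines of the SUMO protein Pmt3 are replaced so that it cannot form chains. All cultures grew exponentially in rich medium (YES), without a drug, and were mixed with budding yeast cells carrying Scc1-Pk as a calibrator. The strain list of the study gives the alleles *ade6-704*, *leu1-32* and *ura4-D18* for the *CFP-cnp1* strains whose numbers stand in the headers of the peak lists and for an untagged strain that is not tied to its list for certain. Each strain gave 1 ChIP library and 1 input library, so no spread between replicates exists and no difference between the lists has a replicate check.

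Hexose transporters are proteins of the plasma membrane with many membrane-spanning helices that carry sugars into the cell, and in fission yeast the Ght proteins do so together with protons. Ght5 is the main high-affinity glucose transporter for growth in low glucose, and Ght3 carries gluconate, an oxidized form of glucose. The annotation names Ght1 a high-affinity glucose symporter and Ght2, Ght5 and Ght6 symporters of glucose and fructose, while Ght4, Ght7 and Ght8 are named as hexose transporters with no stated sugar. Cnp1 replaces histone H3 in the nucleosomes of the centromere core, and none of the 8 genes is near a centromere core.

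The coding sequences of the family were compared with *ght7* over 60 bases only, 20 codons, near the start of the protein. These bases are printed to show where the uncovered *ght7* and its covered relatives are alike and where they differ. They do not give the likeness over the whole coding sequence. How reads were assigned among the relatives was not tested. The sequences come from RefSeq (ASM294v3) and run 5′ to 3′ along the gene. The first line is *ght7*, from its codon 4, in capitals throughout, and in the other lines capitals mark bases identical to *ght7* at the same place.
ght7 chrII:40075-40134 (−): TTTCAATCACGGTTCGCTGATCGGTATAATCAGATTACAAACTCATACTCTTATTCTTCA
ght1 chrIII:234343-234402 (−): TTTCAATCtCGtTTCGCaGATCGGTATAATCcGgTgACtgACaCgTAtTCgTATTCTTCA
ght2 chrII:3427689-3427748 (+): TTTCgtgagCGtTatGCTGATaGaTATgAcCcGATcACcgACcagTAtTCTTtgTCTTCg
ght3 chrI:83041-83100 (+): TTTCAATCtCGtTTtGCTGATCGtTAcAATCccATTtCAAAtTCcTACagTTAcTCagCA
ght4 chrII:157660-157719 (+): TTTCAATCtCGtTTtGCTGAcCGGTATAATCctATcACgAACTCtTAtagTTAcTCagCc
ght5 chrIII:212418-212477 (+): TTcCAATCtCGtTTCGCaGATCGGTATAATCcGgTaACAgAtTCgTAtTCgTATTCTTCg
ght6 chrIII:204838-204897 (+): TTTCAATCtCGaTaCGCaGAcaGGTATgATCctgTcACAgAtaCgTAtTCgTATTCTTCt
ght8 chrIII:228236-228295 (−): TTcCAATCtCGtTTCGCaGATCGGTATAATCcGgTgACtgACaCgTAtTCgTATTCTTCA
Of the 60 bases, *ght1* shared 48 with *ght7*, *ght5* and *ght8* 47 each, *ght3* 45, *ght4* 44, *ght6* 42 and *ght2* 37. In *ght7* these bases lay under no peak of any list. In each of the 7 other genes they lay wholly under peaks in the untagged and *SUMO-KallR* lists, and under none in WT. That is the usual state: peaks covered 95.2% of all bases in the untagged list, 92.8% in *SUMO-KallR* and 1.12% in WT.

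To show what bare sequence near the family looks like, 3 short pieces that were free of peaks in all 3 lists and outside every annotated gene are printed, with G and C in capitals. They were chosen by position inside longer bare stretches, and the composition of those stretches is given with each gene below.
ght7 between SPBC1348.12 and ght7, chrII:37090-37209 (+): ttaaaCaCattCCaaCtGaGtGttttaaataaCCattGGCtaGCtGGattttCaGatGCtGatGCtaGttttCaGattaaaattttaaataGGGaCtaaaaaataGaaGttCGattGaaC
ght8 upstream of the annotated start, chrIII:228846-229045 (−): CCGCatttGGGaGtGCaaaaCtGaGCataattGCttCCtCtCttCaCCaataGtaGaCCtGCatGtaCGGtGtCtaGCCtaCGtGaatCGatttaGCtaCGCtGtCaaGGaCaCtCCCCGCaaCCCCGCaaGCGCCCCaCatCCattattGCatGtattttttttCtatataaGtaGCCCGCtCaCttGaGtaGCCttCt
ght6 downstream of ght6, chrIII:206968-207087 (+): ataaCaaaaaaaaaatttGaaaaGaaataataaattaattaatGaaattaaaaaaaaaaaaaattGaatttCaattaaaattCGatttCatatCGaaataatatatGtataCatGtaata
G and C made up 30.8% of the piece beside *ght7*, 47.5% of the piece upstream of *ght8* and 11.7% of the piece downstream of *ght6*. The longer bare stretches that hold them had 32.3%, 41.6% and 21.1% in the untagged list.

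The untagged list held 961 peaks over 95.2% of the chromosomes, the WT list 59 peaks over 1.12%, and the *SUMO-KallR* list 1615 peaks over 92.8%. Lying under a peak was thus the usual state of a gene in the untagged and *SUMO-KallR* lists, and the unusual state was to be free of peaks. Since the untagged strain has no CFP-Cnp1, its list shows what the method returned without the tagged protein. The height of a peak is its deposited score divided by 10, read as a −log10 of the p-value after the convention of the peak caller. Heights ran from 1.7 to 261.6 in the untagged list (median 18.1), from 1.8 to 4139.3 in WT (median 41.5) and from 2.0 to 4789.1 in *SUMO-KallR* (median 15.8). Since sequencing depth also sets the height, peaks were ranked by height within 1 list only.

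No base of any *ght* window lay under a peak of the WT list, as for nearly all genes: 0.685% of the 5113 windows had any base under a WT peak. In the other lists *ght7* was nearly bare and *ght5* was wholly covered. The windows of *ght3* and *ght5* were wholly under peaks in the untagged list, 2 of 8, where 66.3% of all genes were. In the *SUMO-KallR* list only that of *ght5* was, 1 of 8, where 43.7% of all genes were. The median share of a *ght* window under peaks was 81.9% in the untagged list and 80.8% in *SUMO-KallR*, beside medians of 100% and 96.9% and means of 96.5% and 93.7% over all genes. Without *ght7* the medians of the other 7 genes were 82.4% and 87.5%.

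In the untagged list the share of the window under peaks was 0.444% for *ght7*, 59.3% for *ght1*, 73.7% for *ght8*, 81.4% for *ght4*, 82.4% for *ght6*, 87.6% for *ght2* and 100% for *ght3* and *ght5*. In *SUMO-KallR* it was 1.85% for *ght7*, 63.6% for *ght6*, 69.2% for *ght1*, 74.0% for *ght8*, 87.5% for *ght2*, 91.7% for *ght4*, 95.6% for *ght3* and 100% for *ght5*. *ght7* was lowest and *ght5* wholly covered in both lists, and the largest shift between them was that of *ght6*. With 1 library a strain, no pair of neighbours in either order can be said to differ. Fewer than 90% of the window lay under peaks for 6 of 8 *ght* genes in the untagged list and for 5 of 8 in *SUMO-KallR*, a limit set after the values were seen. Of all genes, 11.0% and 21.9% were below that limit.

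**Figure D1:**
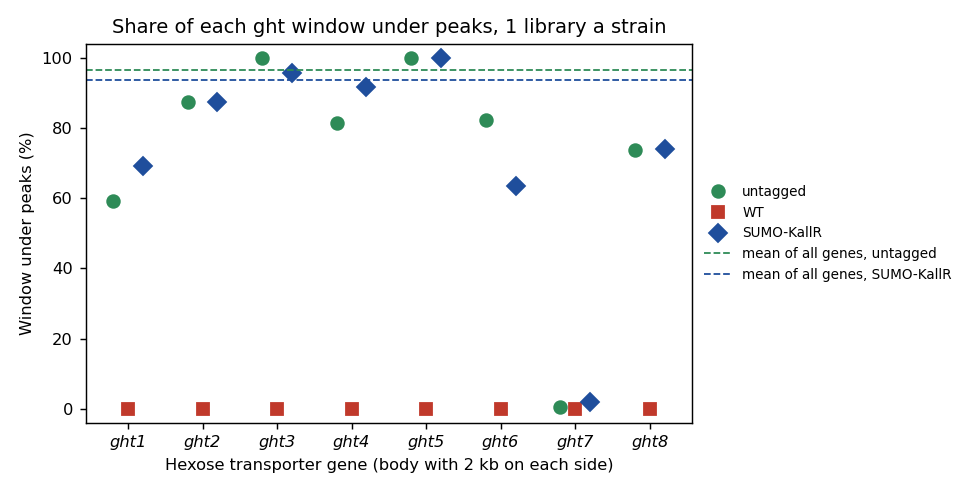
Share of each *ght* window under peaks (y axis, percent) for the 8 genes (x axis), with circles for untagged, squares for WT and diamonds for *SUMO-KallR*, and dashed lines at the means of all genes. The *ght7* window is at 0.444% and 1.85%, and all 8 WT squares are at 0.

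The lowest member, *ght7*, encodes a hexose transporter with no assigned sugar and lies on the minus strand of chromosome II at 38514 to 40143, 38.5 kb from the chromosome end. Its body held no base under a peak in any list. Bodies free of peaks were rare: 0.372% of all genes in the untagged list and 0.43% in *SUMO-KallR*, with *ght7* the 1 member in each. The few covered bases of its window were at its upstream edge, where 1.25% of the 2 kb was covered in the untagged list and 5.2% in *SUMO-KallR*. Of all genes, 0.0391% had a window covered no more than that of *ght7* in the untagged list and 0.0587% in *SUMO-KallR*. Only *ght7* and its neighbour *SPBC1348.12*, annotated as a DNA-binding transcription factor, were at or below the *ght7* values in both lists.

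The peak-free stretch over *ght7* ran from 31283 to 42118 of chromosome II in the untagged list, 10836 bp, and from 31260 to 42039 in *SUMO-KallR*, 10780 bp. Its borders in the 2 lists differed by 23 bp on the left and 79 bp on the right, and 10757 bp were common to both, 99.3% of the one stretch and 99.8% of the other. In *SUMO-KallR* it was the longest of 1618 stretches, which is the value that chose the gene. The next were 8454 bp on chromosome III and 6060 bp on chromosome II, in which 35.7% and 57.5% of the 150-base sequences occurred once in the genome. In the stretch over *ght7* that share was 100%, as it was in the stretch of rank 4, 5894 bp on chromosome I.

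In the untagged list the same stretch was number 3 of 964. The stretches ranked 1, 2 and 4 there, of 11925, 11034 and 10559 bp, lay under WT peaks over 100%, 100% and 97.8% of their length, and the stretch over *ght7* over 0%. The stretch of rank 5 measured 5639 bp, with 2.23% of its sequences occurring once, and that of rank 6 measured 5134 bp, with 100%. Among stretches outside the WT peaks, that over *ght7* was therefore the longest in both lists. In the WT list *ght7* lay in a peak-free stretch from 8211 to 1598838, so the WT list draws no border near the gene.

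**Figure D2:**
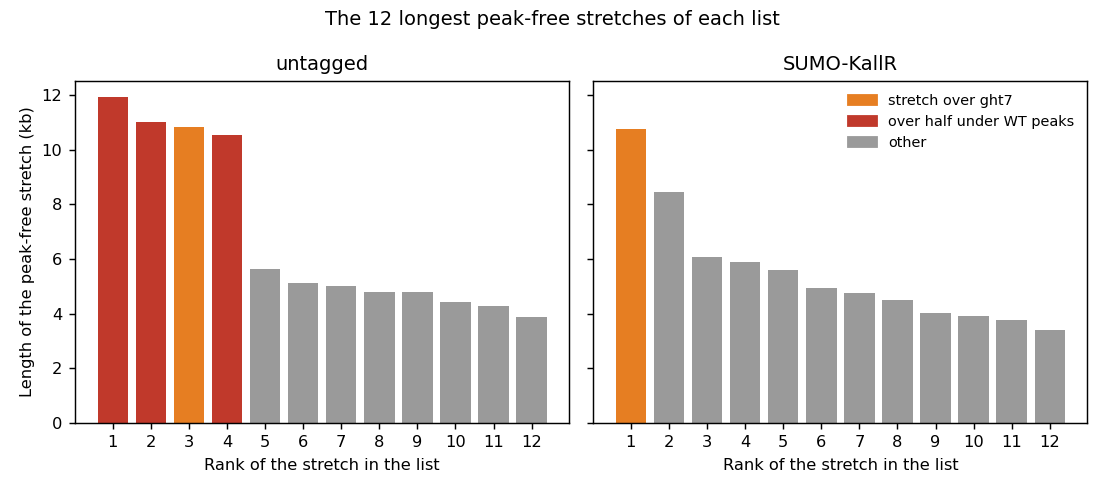
Length of the 12 longest peak-free stretches (y axis, kb) by rank (x axis) in the untagged list (left) and the *SUMO-KallR* list (right), with the stretch over *ght7* in orange, stretches mostly under WT peaks in red and others in grey. The stretch over *ght7* has rank 3 with 10836 bp on the left and rank 1 with 10780 bp on the right.

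Both protein-coding genes of the stretch, *ght7* and *SPBC1348.12* (35112 to 36589), were at 0% in all lists. So were the pseudogene *SPBC1348.11* and the long non-coding RNA genes *SPNCRNA.4526* to *SPNCRNA.4530*, of which *SPNCRNA.4529* lies antisense over *ght7*. Outside the stretch the neighbours were listed as covered. *SPBC1348.10C*, a phospholipase gene on the telomere side, was at 100% in both lists. Of its 150-base sequences 0% occurred once in the genome, so its cover cannot be assigned to this place for certain. *SPBPB8B6.02C*, a urea transporter gene on the other side, was at 97.9% in the untagged list and 99.4% in *SUMO-KallR*. All of its sequence (100%) was unique by that measure. No long terminal repeat of a retrotransposon lay inside the stretch, and the nearest to *ght7* was 17007 bp away. Its G and C content was 32.3% by the untagged borders and 32.4% by those of *SUMO-KallR*, where chromosome II had 35.9%.

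The peaks beside the stretch were unlike in the 2 lists. In the untagged list the left one ran from 22146 to 31282 with a height of 33.8 and the right one from 42119 to 46787 with a height of 11.8. In *SUMO-KallR* they ran from 30832 to 31259 and from 42040 to 43837, both with a height of 4.7, and 6.5% of the peaks of that list were lower than the right one. The borders next to *ght7* agreed although the peaks that set them did not agree in length or height. This agreement rests on the low *SUMO-KallR* peaks. With a height floor of 5 the *SUMO-KallR* stretch was 14500 bp and the untagged one stayed at 10836 bp.

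A peak list cannot say whether a stretch free of peaks is present in the DNA of a strain. The *ura4* gene, named here after its values were seen, gives a value for a deleted gene: *ura4-D18* is a deletion, and the annotated *ura4* body was at 0% in the *SUMO-KallR* list. It was at 0% in the untagged list too, whose library was taken to carry the same allele, since the header of that list does not name its strain for certain. The gene lay in peak-free stretches of 2166 bp (115156 to 117321 of chromosome III) in the untagged list and 2936 bp (114421 to 117356) in *SUMO-KallR*. The *ade6* and *leu1* genes, whose alleles *ade6-704* and *leu1-32* are not deletions, were at 100% in both lists. So were the bodies of most genes, 91.8% of all in the untagged list and 82.3% in *SUMO-KallR*. Of all 5113 genes, 14 had bodies free of peaks in both lists, 0.274%, and *ght7*, *SPBC1348.12* and *ura4* were among them. Others were *SPAC56F8.13*, *SPAC17A2.11*, *SPCC569.02C*, *mug106* and *new22*. Of the 14, *ura4* alone is given as deleted in the genotypes of the *CFP-cnp1* strains. Whether the strains carry *ght7* was not tested, since the input libraries were not analysed here.

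The genes whose cover was most like that of *ght7*, by the sum of the absolute differences in window share over the 3 lists and leaving out its own stretch, were *SPAC56F8.13*, *SPCC569.01C*, *SPAC17A2.11*, *SPAPB15E9.06* and *SPAC17A2.10C*. All are annotated as uncharacterized proteins. *SPAC56F8.13* was nearest, with a sum of 13.8 percentage points, and had 8.42% of its window under untagged peaks and 7.71% under *SUMO-KallR* peaks. The other 4 had sums from 26.8 to 45.5. The window of *SPCC569.01C* held 26.6% of sequences that occur once and that of *SPAPB15E9.06* 78.8%, and the remaining 3 were at 100%, as *ght7* was.

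**Figure D3:**
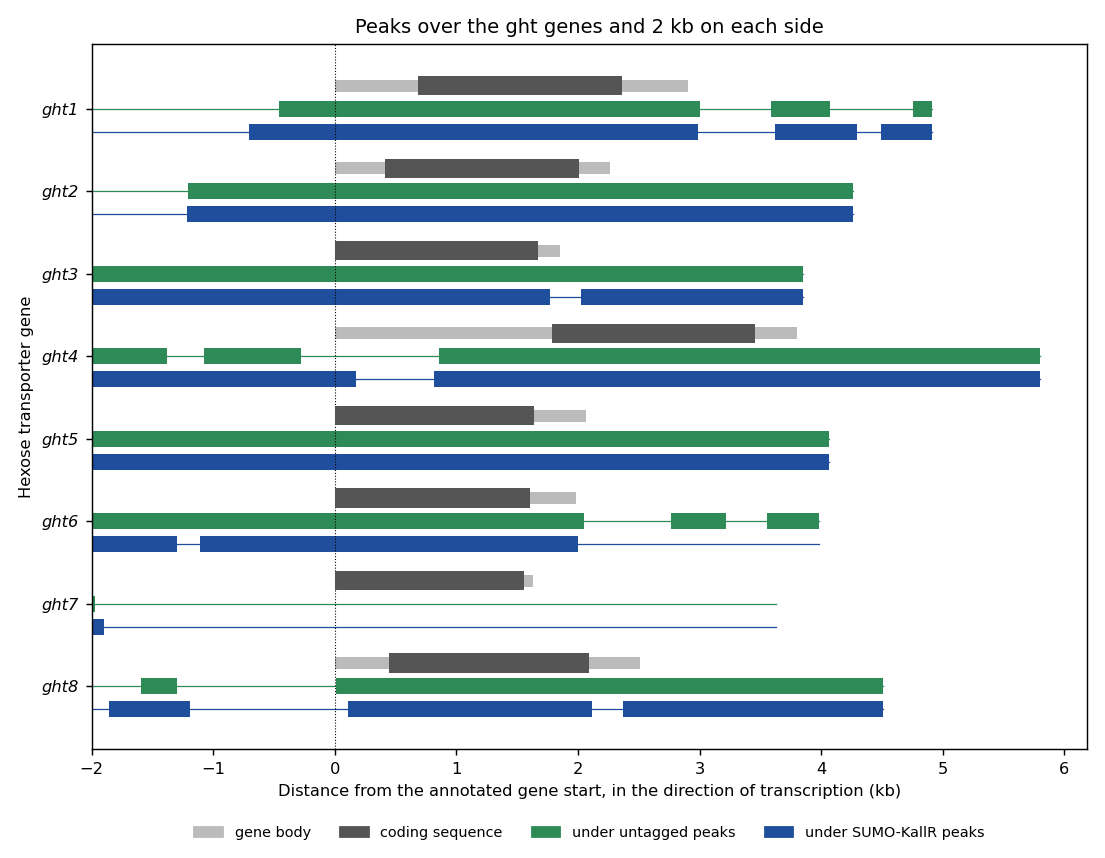
Stretches under peaks (thick bars) of the untagged (green) and *SUMO-KallR* (blue) lists over each *ght* window, by distance from the annotated gene start in kb along transcription (x axis), with the gene body in light grey and the coding sequence in dark grey. Thin lines are peak-free, and *ght7* is free of peaks apart from its upstream edge while *ght5* is under peaks throughout.

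On chromosome III *ght6*, *ght5*, *ght8* and *ght1* lie in this order within 30.5 kb (204733 to 235195), and the windows of *ght8* and *ght1* share 558 bp. The stretch from *ght6* to *ght1* was under peaks over 87.4% in the untagged list, by 7 peaks, and over 82.8% in *SUMO-KallR*, by 8. Peak-free bases there did not reach the coding sequence of a *ght* gene: the bodies of *ght6*, *ght5* and *ght1* were at 100% in both lists, and that of *ght8* at 99.5% and 85.6%. The bare part of *ght8* in *SUMO-KallR* was at both ends of the body, from 226480 to 226730 and from 228735 on, and did not reach its coding sequence (226757 to 228400).

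*ght5*, the gene of the main high-affinity glucose transporter, was the only member at 100% in body and flanks in both lists. A single untagged peak of 19843 bp (208990 to 228832, height 19.0) held its whole window and reached to the annotated start of *ght8*. In *SUMO-KallR* a peak of 11487 bp (209004 to 220490) covered it with a height of 20.1 and a summit at 215873, 3560 bp from the *ght5* start. Of the peaks in its own list, 80.1% were lower than that one and 58.2% lower than the untagged one. The neighbours *SPCC1235.18* and *dga1*, which encodes an enzyme of triglyceride synthesis, were at 100% in both lists.

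*ght8*, the closest relative of *ght5*, was bare upstream of its start. Of its 2 kb upstream, 14.9% was under untagged peaks and 33.6% under *SUMO-KallR* peaks, and the 2 kb downstream were at 100% in both. The peak-free stretch at its start ran from 228833 to 230141 in the untagged list, 1309 bp, and from 228735 to 230033 in *SUMO-KallR*, 1299 bp, with 1201 bp in common. Both held the printed bases upstream of *ght8*, and their G and C content was 41.6% and 42.4%, above the 36.1% of the genome. The long non-coding RNA gene *SPNCRNA.6754* inside the stretch was at 0% and 2.8%. On the other side of *ght8*, *urm1*, which encodes a ubiquitin-like modifier, was at 100% and 99.2%, and *dbl5*, a ubiquitin ligase gene, at 100% in both lists.

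*ght1*, which encodes a high-affinity glucose symporter, had the lowest window share after *ght7* in the untagged list. Its 2 kb upstream were at 22.9% in that list and 35.4% in *SUMO-KallR*, its body was at 100% in both, and its 2 kb downstream were at 36.4% and 58.4%. Upstream, the peak-free stretch ran from 235653 to 237257 in the untagged list, 1605 bp, and from 235903 to 237306 in *SUMO-KallR*, 1404 bp, with 1355 bp in common. The peak over the body was 3458 bp long with a height of 12.3 in the untagged list and 3692 bp long with a height of 17.0 in *SUMO-KallR*. The summits of these peaks were at 232736 and 233395, both inside the gene.

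*ght6*, a glucose and fructose symporter gene, differed most between the lists. Its 2 kb downstream were under peaks over 47.4% in the untagged list and 0.8% in *SUMO-KallR*, and its 2 kb upstream over 100% and 90.3%. The untagged list had peaks from 207495 to 207947 and from 208284 to 208787 there, with heights of 2.0 and 5.2, among the lowest of that list: 0.208% and 8.22% of its peaks were lower. The *SUMO-KallR* list had none, so that its peak-free stretch reached from 206734 to 209003, 2270 bp. The first part of it, from 206780 to 207494, was bare in both lists and had a G and C content of 21.1%. The body of *SPCC1235.17*, the uncharacterized protein gene downstream, was at 68.2% in the untagged list and 30.0% in *SUMO-KallR*.

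Outside the group on chromosome III, *ght3* and *ght4* are each other's closest relatives. *ght3*, the gluconate symporter gene on chromosome I (82936 to 84786), was wholly under an untagged peak of 11258 bp with a height of 13.5. In *SUMO-KallR* 255 bp at the end of the gene were bare (84707 to 84961), after the coding sequence, with a G and C content of 22.7%. This gap separated peaks with heights of 9.5 and 11.5, and 17.7% and 23.6% of the peaks of that list were lower than these. The heme-uptake gene *shu1* downstream was at 100% in both lists.

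*ght4*, on chromosome II at 155772 to 159570, has a long annotated 5′ part before its coding sequence, which starts at 157555. All bare bases of its body were in that 5′ part. In the untagged list they belonged to a stretch from 155491 to 156632, 1142 bp, that began upstream of the gene, inside *mal1*. In *SUMO-KallR* the stretch ran from 155944 to 156591, 648 bp, all of it bare in the untagged list too. The body was at 77.3% and 82.9%, and the 2 kb downstream at 100% in both. Upstream lies *mal1*, the gene of a maltase that splits maltose into glucose. An untagged peak with a height of 56.7 and its summit at 155030, inside *mal1*, was 39th of 961, the highest rank of any untagged peak over a *ght* window. In *SUMO-KallR* the peak there had its summit at 154977, also inside *mal1*, with a height of 15.7 and rank 830 of 1615. The *mal1* body was at 64.5% in the untagged list and 100% in *SUMO-KallR*, and that of *frp1*, a ferric reductase gene downstream of *ght4*, at 100% and 97.5%.

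*ght2*, a glucose and fructose symporter gene at 3427160 to 3429424 of chromosome II, was the member farthest from a chromosome end, 1110 kb away. Its window shares were nearly equal, 87.6% and 87.5%, with body and downstream flank at 100% in both lists. The bare stretch upstream ran from 3425174 to 3425950 in the untagged list, 777 bp, and from 3424417 to 3425940 in *SUMO-KallR*, 1524 bp. The peaks over the gene were broad, 30769 bp with a height of 19.7 and 22399 bp with a height of 18.2. The untagged summit was 618 bp from the gene start and the *SUMO-KallR* summit 8787 bp from it, outside the window. Downstream, *prp39*, which encodes a protein associated with the U1 snRNP of the spliceosome, was at 100% in both lists.

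By the medians of the family, bare bases were most common upstream, though not in every member. In *SUMO-KallR* the members were divided. *ght1*, *ght2* and *ght8* were barer upstream, and *ght3*, *ght6* and *ght7* were barer downstream, with 91.2%, 0.8% and 0% of the downstream part covered. The 2 kb upstream of *ght3* and *ght5* were at 100% in both lists, and those of *ght6* at 100% and 90.3%. These genes and *ght7* are annotated from the start of the coding sequence, so their upstream part begins at a different kind of point. The median share under peaks in the 2 kb upstream was 65.9% in the untagged list and 75.7% in *SUMO-KallR*, beside medians of 100% and means of 93.8% and 89.4% over all genes. In the 2 kb downstream the medians of the *ght* genes were 100% and 95.6%. Gene bodies wholly under peaks were 5 of 8 in the untagged list, where 91.8% of all genes were, and 4 of 8 in *SUMO-KallR*, where 82.3% were. Without *ght7* the upstream medians were 70.7% and 90.3%. Over all genes too the cover dipped before the start, from 300 to 200 bp upstream to 90.6% in the untagged list and 82.2% in *SUMO-KallR*. At that distance the 8 *ght* genes averaged 64.9% and 75.0%, and without *ght7* 74.1% and 85.7%, the latter above all genes. Of the 20 bins of 100 bp upstream of the start, the mean without *ght7* was below that of all genes in 20 in the untagged list and in 15 in *SUMO-KallR*. Of the 20 bins downstream it was below in 9 and 12.

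**Figure D4:**
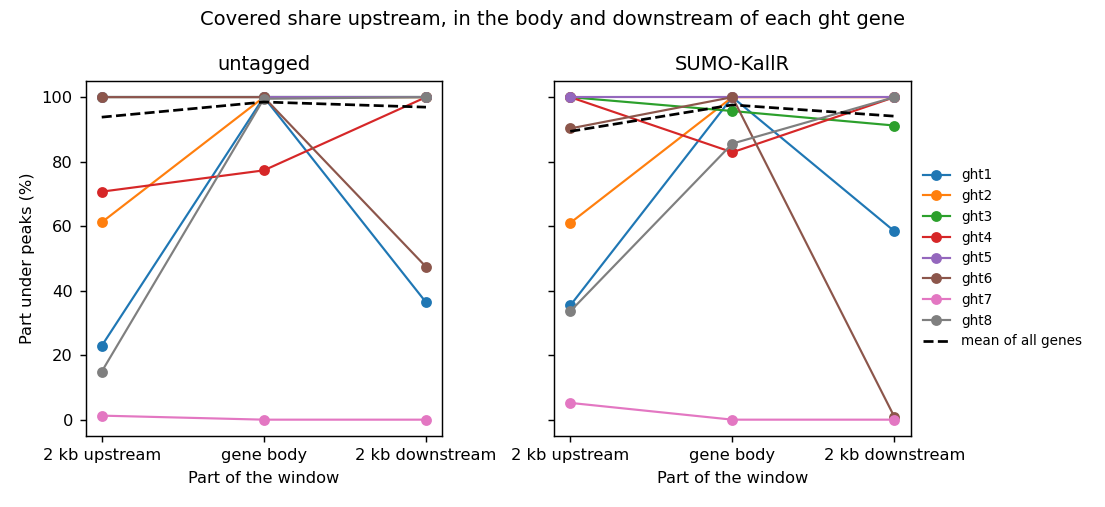
Share under peaks (y axis, percent) in the 2 kb upstream, the gene body and the 2 kb downstream (x axis) of each *ght* gene, in the untagged (left) and *SUMO-KallR* (right) lists, with the means of all genes dashed. *ght8* goes from 14.9% and 33.6% upstream to 100% downstream, and *ght6* from 100% in the body to 47.4% and 0.8% downstream.

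**Figure D5:**
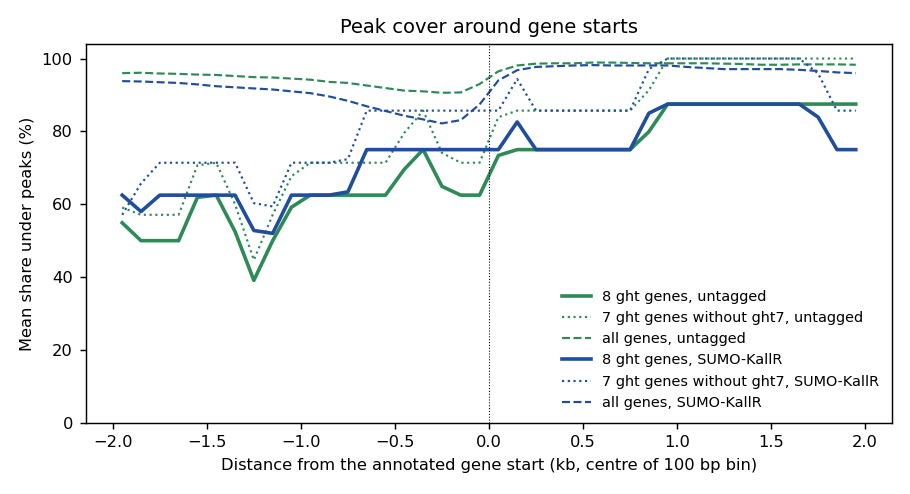
Mean share under peaks (y axis, percent) in 100 bp bins by distance from the annotated gene start (x axis, kb), for the 8 *ght* genes (solid) and all genes (dashed), untagged in green and *SUMO-KallR* in blue. Dotted lines leave out *ght7*, which was chosen for its lack of peaks, and cross the dashed ones in *SUMO-KallR* upstream and in both lists inside the genes.

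Summits did not follow the cover. A summit lay in the window of *ght1*, *ght2*, *ght4*, *ght6* and *ght8* in the untagged list, 5 of 8, beside 35.2% of all genes. In *SUMO-KallR* 6 of 8 had one, *ght1*, *ght3*, *ght4*, *ght5*, *ght6* and *ght8*, beside 55.5%. *ght5*, wholly covered in both lists, had a summit in its window only in *SUMO-KallR*, and *ght7* had none in either. A peak has 1 summit whatever its length, so a gene under a broad peak often has none.

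The bare bases of the family were largely common to the lists. Of 50454 bp in the 8 windows, 13004 bp (25.8%) were free of untagged peaks and 13063 bp (25.9%) of *SUMO-KallR* peaks. The 11275 bp free of both made up 86.7% of the first and 86.3% of the second. Without the *ght7* window, 5749 bp were common, 77.7% and 76.3%. Over the 3 chromosomes 4.77% of the bases were free of untagged peaks and 7.17% of *SUMO-KallR* peaks, with 72.3% and 48.1% of them common.

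Base composition differed between the bare bases of *ght7* and those of the other genes. In 200 bp pieces, the median G and C content of the bare pieces was 32.0% in the *ght7* window (28 pieces) and 39.8% in the 7 other windows (28 pieces) in the untagged list. In *SUMO-KallR* it was 32.5% (27 pieces) and 38.8% (28 pieces). Covered pieces, all of them outside the *ght7* window, had medians of 37.0% in the untagged list and 38.0% in *SUMO-KallR*. By these medians, the bare pieces of *ght7* were poorer in G and C than the covered pieces of the other windows. Within the 7 other windows the median of bare pieces was slightly higher than that of covered ones, but their quartiles overlapped. In *SUMO-KallR* the quartiles were 30.9% and 43.2% for bare pieces and 32.5% and 42.5% for covered ones. Over the 3 chromosomes the medians of covered and bare pieces were 36.5% and 34.0% in the untagged list and 36.5% and 32.0% in *SUMO-KallR*. Between 97.2% and 100% of the 150-base sequences in a *ght* window occurred once in the genome, lowest for *ght5* and *ght8*. The wholly covered *ght5* window had the lowest share of unique sequence and the bare *ght7* window had 100%. The *ght2* and *ght6* windows had 100% too. Of these, 87.6% and 82.4% lay under untagged peaks and 87.5% and 63.6% under *SUMO-KallR* peaks. The part of base composition in the cover was not tested.

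Relatedness of the proteins and cover can be set side by side. Ght5 and Ght8 were identical at 91.6% of aligned residues and Ght3 and Ght4 at 86.9%, and the lowest identity was 55.7%, between Ght3 and Ght6. Ght7 was most like Ght5, with 74.6%, the member with the opposite cover. Ght7 is also the shortest of the family, with 518 residues beside up to 557, and its first residue was aligned to residue 33 of 6 of the others and to residue 37 of Ght2. Its annotated start, like those of *ght3*, *ght5* and *ght6*, is marked as partial and coincides with the start of the coding sequence.

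The other genes of sugar use, 39 listed genes from hexokinases to glucose sensing, were compared by the same measure. Their windows were wholly under peaks for 10 of 39 in the untagged list, beside 66.3% of all genes, and for 9 of 39 in *SUMO-KallR*, beside 43.7%, with median shares of 90.7% and 85.8%. None of the 39 had a base under a WT peak, where 0.685% of all genes did. The 11 genes of glycolysis had medians of 81.9% and 76.1%, near those of the *ght* genes, and *pgk1*, which encodes phosphoglycerate kinase, had the lowest *SUMO-KallR* value of the list, 41.0%, beside 83.8% in the untagged list. The hexokinase genes, whose enzymes phosphorylate the sugar that the transporters bring in, were at 97.6% and 97.5% for *hxk1* and at 56.3% and 62.0% for *hxk2*. Genes that sort transporters to and from the membrane, *aly3*, *any1* and *pub1*, were at 93.6% to 100%. The *ght7* window was lower than that of every listed gene in both lists, which follows from its choice for a lack of peaks.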

How the data were processed

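The data are peak lists of the 3 ChIP libraries, 1 a strain. The authors removed adapters and poor bases (cutadapt), aligned to the ASM294v2 and budding yeast genomes (Bowtie2) and took out duplicates, rDNA and mitochondrial reads (SAMtools). Background came from the input, the budding yeast reads gave the calibration, and MACS3 called peaks in each library by itself. No source used here gives the versions. Per the series text, a stricter removal of background was applied later to these libraries, and how it affects the cover was not tested. The deposited lists give peak start, end and summit (other values) and a score per peak. Reads are not in the lists, so depth sets no interval here and its part in the cover was not tested. The 3 input libraries were not analysed here.

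From these, the share of bases under a peak was computed for each gene body, the 2 kb on each side and the window of both, for 5113 protein-coding genes of the RefSeq annotation (ASM294v3). No peak ended beyond a chromosome of that assembly, and its bases other than N differ from the genome size given to MACS3 by 19431, where its mitochondrial genome has 19433, so positions of peaks and genes were used together. Stretches were called unique by 150-base sequences that occur once, on either strand, in the genome. Proteins were translated from the coding sequences and aligned globally (BLOSUM62, gap opening −12, gap extension −1). The named genes were all 8 *ght* genes, annotated genes within 2 kb of them, genes in the longest *SUMO-KallR* stretch at each, and the 5 genes nearest to *ght7* in cover. The members, the sugar list and the alternatives were chosen with earlier results of these data known. Of 40 listed sugar genes, *git10* matched no annotated symbol. Tested on simulated lists of peaks without overlaps, the number of covered bases was recovered for 20 of 20 lists. Gene windows were not simulated. Python 3.11.15, NumPy 2.4.6, SciPy 1.17.1, Biopython 1.88 and matplotlib 3.10.9 were used. Alternatives were the gene body alone, 5 kb on each side, a height floor of 5, peaks of at least 300 bp, merging of peaks closer than 500 bp and counting unique positions only.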

Additional observations from a re-analysis of the deposited data

How the results depend on the processing

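Of the summary values, 46 recomputed under an alternative stayed within their limit and 10 moved. For counts the limit was a 1.5-fold change. The 46 include the WT values, which were 0 under every alternative and say nothing of how steady the other lists are. Without *ght7*, an alternative chosen after seeing the data, the covered share of the family was 82.8% in the untagged list and 83.1% in *SUMO-KallR*. With the gene body alone, the covered share of the family was 86.8% in place of 73.7% in the untagged list and 85.7% in place of 74.1% in *SUMO-KallR*, genes wholly under peaks were 5 in place of 2 and 4 in place of 1, and untagged summits were found in 3 genes in place of 5. With 5 kb on each side no *ght* gene was wholly under peaks in either list (0 and 0). Merging peaks closer than 500 bp made 2 *ght* windows wholly covered in *SUMO-KallR*. With 5 kb on each side 26.0% and 20.2% of the *ght7* window was covered in the untagged and *SUMO-KallR* lists, the alternative reaching past the stretch. With a height floor of 5 the *SUMO-KallR* stretch over *ght7* grew to 14500 bp from 10780 bp, and was still counted as within its limit. The untagged stretch stayed at 10836 bp, so the borders of the 2 lists no longer agreed. Of the values of single genes, 83 stayed and 13 moved. No paired analysis was possible because each strain has 1 library. The values rest on 1 library a strain and on where a peak was called, so a bare base is one at which no peak was called and not one at which no read was found.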
